A study of Arabidopsis thaliana with 6 samples.

Results

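The seed coat mucilage genes are 9 Arabidopsis genes of the seed coat and its mucilage, namely MUM4, GATL5, MUCI10, MUM2, SBT1.7, PMEI6, PRX36, FLY1 and DELTA-VPE. Of these, DELTA-VPE belongs to the inner layers of the seed coat and not to mucilage synthesis. They were chosen by locus, as the rows whose gene model identifier cut at the dot is one of the 9. The rule did not use their values, but earlier results of these data were known. All 9 were present among the 33602 gene models. They were read as a test of seed coat RNA in libraries made for another purpose, the effect of the amount of total RNA on RNA-seq sensitivity. The 6 libraries were made from 10, 25, 50, 75 and 100 pg and from 5 ng of total RNA of untreated wild type plants. The accession is Col-0 according to the study. It describes the libraries as dilutions of 1 RNA sample of whole cotyledons, cut by laser from embryo sections 8 days after fertilization, whereas the sample labels give the tissue as seed at stage 6.30. Each amount had 1 library, so there were no replicates, and dilutions of 1 sample share its RNA. The 5 ng library was sequenced on the first date and the other 5 on the second, so that date and amount cannot be told apart in any comparison with 5 ng.

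In Arabidopsis the epidermal cells of the seed coat fill with pectin, mostly rhamnogalacturonan I, between the plasma membrane and the outer wall. On wetting, the pectin swells, the outer wall breaks and a gel of mucilage surrounds the seed. The sugars are made and joined in the cytosol and Golgi, the polymer is secreted, and enzymes of the wall then trim it or set how tightly it is held. These cells belong to the mother plant and not to the embryo. Some of the same genes are active in other organs too, so that a transcript of one gene does not by itself mark the seed coat. In bulk RNA, moreover, fewer cells of a type and less RNA per cell cannot be told apart.

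The windows before the annotated gene starts are shown for members of unlike course, DELTA-VPE (no reads in the smallest amounts), MUCI10 (1 low library) and SBT1.7 (the steadiest). They are the 250 bases upstream of the start in the RefSeq annotation of TAIR10.1, on the gene's own strand, at chr3:7052097-7052346 (+ strand), chr2:9746436-9746685 (- strand) and chr5:26874851-26875100 (- strand). Capitals mark matches to the TATA box (TATAAA, this strand only), the RY element (CATGCA, either strand), which B3 regulators of seed maturation bind, and the G-box (CACGTG, either strand).
DELTA-VPE: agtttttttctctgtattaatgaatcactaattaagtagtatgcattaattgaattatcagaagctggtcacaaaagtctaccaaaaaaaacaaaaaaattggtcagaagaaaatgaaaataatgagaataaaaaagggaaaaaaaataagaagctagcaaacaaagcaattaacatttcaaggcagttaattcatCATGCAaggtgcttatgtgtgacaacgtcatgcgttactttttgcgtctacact
MUCI10: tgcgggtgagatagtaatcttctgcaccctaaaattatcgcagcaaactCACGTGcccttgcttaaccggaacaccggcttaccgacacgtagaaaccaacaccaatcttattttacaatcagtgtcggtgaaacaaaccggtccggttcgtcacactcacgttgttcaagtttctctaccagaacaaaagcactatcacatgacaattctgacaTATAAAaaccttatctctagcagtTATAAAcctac
SBT1.7: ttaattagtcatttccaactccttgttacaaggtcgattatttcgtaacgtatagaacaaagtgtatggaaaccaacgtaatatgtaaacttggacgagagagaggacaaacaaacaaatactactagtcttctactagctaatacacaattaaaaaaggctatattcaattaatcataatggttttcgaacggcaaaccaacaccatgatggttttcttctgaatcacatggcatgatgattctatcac
The DELTA-VPE window held an RY element 54 to 49 bases before the start, a motif found in 8.43% of 27443 such windows and in 1 other member, PRX36. The MUCI10 window held a G-box 201 to 196 bases before the start (6.49% of all windows) and TATAAA at 35 to 30 and at 11 to 6 bases (32.9% of all windows, and also PRX36). The SBT1.7 window held none of the motifs searched. The L1 box (TAAATGTA or TAAATGCA, either strand), which is known from genes of the shoot epidermis, was in 4.49% of all windows and in 0 of the 9. A match is a description of the letters only.

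The libraries held between 22403342 and 51130296 counted read pairs. A count of 0 thus allowed up to between 0.0975 and 0.134 CPM (counts per 1e6 counted pairs) in the smaller amounts, and up to 0.0587 CPM at 5 ng. These limits and the exact 95% intervals cover counting error only: the cDNA was amplified by PCR and its reads do not each stand for a separate molecule. The 5 ng library stood apart from the others. The study describes all 6 as dilutions of 1 sample, and the cause of the difference was not tested. It sequenced the 100 pg sample on both dates to correct for a sequencing bias. The 9 seed reserve transcripts summed to between 16.6 and 43.8 CPM in the 5 smaller amounts, against 627113 CPM at 5 ng. The values of other genes at 5 ng are thus compressed in plain CPM, and each level is therefore also given as normalised CPM, with the trimmed mean of M-values (TMM) factors, which were between 1.07 and 1.41 in the smaller amounts and 0.306 at 5 ng. Over 18931 genes with at least 1 CPM in any library, the median log2 ratio to 5 ng lay between 0 and 0.20 with TMM factors and between 0.62 at 10 pg and 1.84 at 100 pg without them. Of 12 embryo and cotyledon markers, between 10 and 12 were detected in each library.

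Transcripts of 6 of the 9 genes were found in each of the 3 smallest amounts, and those of 8 genes in the libraries of 75 pg, 100 pg and 5 ng. Detection needed at least 1 read pair. DELTA-VPE had none at 10, 25 and 50 pg, MUM2 none at 10 and 25 pg, and PMEI6 none at 10 and 50 pg. PRX36 had read pairs in the 10 pg library only. Over all gene models, the detected shares in the 5 libraries from 10 to 100 pg were 47.4%, 50.1%, 55.0%, 58.1% and 57.3%, and 51.9% at 5 ng. MUM4, GATL5, MUCI10, SBT1.7 and FLY1 were detected in all 6 libraries, that is 5 of 9 genes, beside 38.0% of all gene models. Of the 8 genes detected at 5 ng, 3 had 0 counts in at least 1 smaller amount, beside 26.9% of the 17446 gene models detected at 5 ng. A stricter minimum of 10 read pairs left 5, 6, 6, 7 and 8 of the 9 genes from 10 to 100 pg, and 8 at 5 ng. Together the 9 genes held 5453, 7902, 6504, 5695 and 9454 read pairs at 10, 25, 50, 75 and 100 pg, and 4527 at 5 ng, of which SBT1.7 alone made up between 35.8% at 25 pg and 59.1% at 10 pg.

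**Figure D1:**
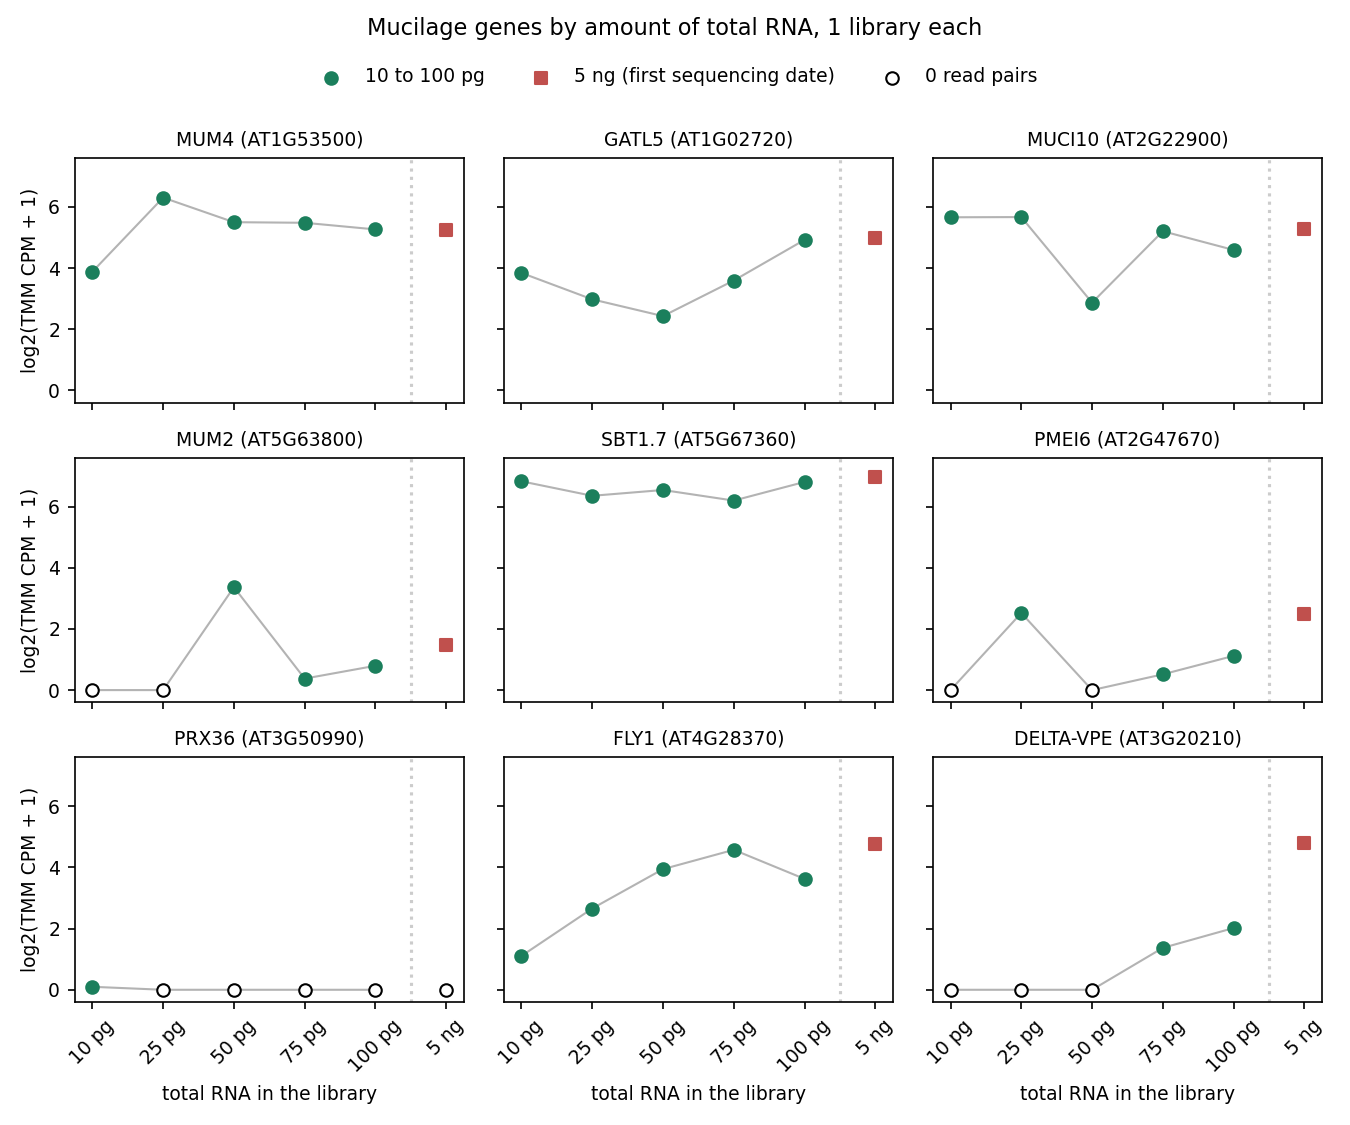
Levels of the 9 seed coat mucilage genes, as log2 of (normalised CPM + 1) on the vertical axis, against the amount of total RNA on the horizontal axis, with 1 library per point. Green circles are the 5 smaller amounts, red squares the 5 ng library of the first sequencing date and open circles libraries with 0 read pairs; SBT1.7 stayed between 72.4 and 125 normalised CPM, while DELTA-VPE had no read pair at 10, 25 and 50 pg.

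The 3 genes that make the sugars and polymers of mucilage were read in every library, each with 1 or more libraries far from the rest. MUM4 (AT1G53500, also called RHM2, chr1:19966944-19969757, - strand, 3 exons) makes UDP-rhamnose, the rhamnose donor for rhamnogalacturonan I. It had 14.7, 93.9, 58.8, 59.0 and 53.0 CPM at 10, 25, 50, 75 and 100 pg, and 11.4 CPM at 5 ng, from between 393 and 2734 read pairs. As normalised CPM these were 13.7, 78.1, 44.3, 43.7 and 37.4, and 37.2 at 5 ng. The 10 pg library was thus the low one with TMM factors, at 0.37 of the 5 ng level, and the 25 pg library the high one, at 2.10 times that level. In plain CPM, all 5 smaller amounts were above 5 ng. The last bases of MUM4 overlap those of HEI10 on the opposite strand, which had between 96 and 383 read pairs, and the antisense RNA AT1G07893 lies within MUM4. The reads carry no strand, so their origin between such partners cannot be told.

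GATL5 (AT1G02720, chr1:591682-594264, + strand, 2 exons) is a galacturonosyltransferase-like protein of the Golgi that shapes mucilage rhamnogalacturonan I. Its levels were 14.3, 8.27, 5.83, 15.0 and 41.5 CPM in the 5 amounts from 10 to 100 pg, and 9.27 CPM at 5 ng. The 100 pg library had 1277 read pairs, against between 167 and 382 in the 4 smaller amounts. On the normalised scale the 5 libraries had 13.3, 6.88, 4.39, 11.1 and 29.3 CPM, all below the 30.3 CPM at 5 ng, whereas in plain CPM 3 of the 5 were above 5 ng.

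MUCI10 (AT2G22900, chr2:9744146-9746435, - strand, 2 exons) adds galactose to the glucomannan of mucilage. It had 53.2, 59.9, 8.38, 48.5 and 32.7 CPM from 10 to 100 pg, and 11.5 CPM at 5 ng. The library of 50 pg stood out as the low one, with 240 read pairs against between 1007 and 1746 in the other 4 small amounts. In normalised CPM the values were 49.6, 49.8, 6.31, 35.9 and 23.1, and 37.6 at 5 ng, so that the 10 and 25 pg libraries were above 5 ng and the other 3 below.

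Among the 4 genes whose proteins modify the wall, SBT1.7 was the most abundant and the steadiest, MUM2 and PMEI6 had 0 counts in 2 of the 5 smaller amounts each, and PRX36 was at the limit of detection. SBT1.7 (AT5G67360, listed as ARA12 in the annotation, chr5:26871891-26874850, - strand, 1 exon) is a subtilisin-like protease needed for mucilage release. It had 3223, 2829, 3510, 2190 and 4830 read pairs from 10 to 100 pg, and 1956 at 5 ng. In CPM these were 121, 97.1, 122.5, 97.8 and 157, and 38.3 at 5 ng. The normalised values were 113, 80.8, 92.3, 72.4 and 111 CPM, and 125 CPM at 5 ng, a range of 1.56-fold over the 5 smaller amounts. All 5 were below 5 ng on this scale and above it in plain CPM. It ranked between 1067 and 1779 among all genes in every library, above 89.4% of the detected genes where it was lowest.

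MUM2 (AT5G63800, chr5:25530055-25535889, + strand, 16 exons) is a β-galactosidase that trims galactose side chains of the pectin. It had 0, 0, 354, 9 and 32 read pairs at 10, 25, 50, 75 and 100 pg, and 28 at 5 ng. Only the 50 pg library was high, with 12.4 CPM (9.30 normalised). The 75 and 100 pg libraries had 0.402 and 1.04 CPM, and the 5 ng library 0.548 CPM (1.79 normalised).

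PMEI6 (AT2G47670, chr2:19543921-19544910, - strand, 1 exon) inhibits pectin methylesterases. It had 0, 166, 0, 13 and 51 read pairs in the same order, and 73 at 5 ng. The 25 pg library was the high one, with 5.70 CPM. The 75 and 100 pg libraries had 0.580 and 1.66 CPM, and the 5 ng library 1.43 CPM. On the normalised scale the 25 pg value was 4.74 CPM, beside 4.67 CPM at 5 ng.

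PRX36 (AT3G50990, listed as PER36, chr3:18943135-18944811, + strand, 4 exons) is a peroxidase that loosens the outer wall of the mucilage cells. It had 2 read pairs at 10 pg, or 0.0749 CPM with an exact 95% interval from 0.00907 to 0.271, and 0 in the other 5 libraries. Its 10 pg value lies under the 0.112 CPM that a count of 0 allows there, so no level is read from it.

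The 2 remaining genes act in the endomembranes and in the vacuole, and both were lowest in the smallest amounts. FLY1 (AT4G28370, chr4:14034536-14039668, + strand, 15 exons) is a membrane-bound RING ubiquitin ligase that affects the methylesterification of mucilage pectin. It had 33, 186, 548, 692 and 494 read pairs from 10 to 100 pg, and 408 at 5 ng. The levels were 1.24, 6.39, 19.1, 30.9 and 16.0 CPM, and 7.98 CPM at 5 ng. In normalised CPM they were 1.15, 5.31, 14.4, 22.9 and 11.3, and 26.1 at 5 ng, a 19.8-fold range over the 5 smaller amounts. The 10 pg library was the lowest and the 75 pg library the highest of the 5. With TMM factors all 5 were below 5 ng, and in plain CPM the 3 largest of the 5 amounts were above it.

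DELTA-VPE (AT3G20210, chr3:7052347-7054743, + strand, 8 exons) is a vacuolar processing enzyme, a cysteine protease of the inner cell layers of the seed coat, where it acts in their programmed death. It is thus a seed coat gene and not one of mucilage synthesis. It had 0, 0, 0, 48 and 133 read pairs at 10, 25, 50, 75 and 100 pg, and 419 at 5 ng. The libraries of 75 and 100 pg thus had 2.14 and 4.32 CPM, and the 5 ng library 8.19 CPM. As normalised CPM they were 1.59 and 3.05, and 26.8 at 5 ng. The 3 smallest amounts were without reads, the next 2 low and the 5 ng library high. An antisense RNA, AT3G03955, overlaps the gene.

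Against 5 ng, DELTA-VPE was the single member at least 4-fold lower in all 5 smaller amounts, and no member was at least 4-fold higher in all 5. This rule used the ratio of normalised CPM + 1, each smaller amount over 5 ng, among the 8 members with at least 1 CPM in any library (PRX36 had less). Over all 18931 genes that passed the same minimum, 6.63% were at least 4-fold above 5 ng in all 5 smaller amounts and 7.86% at least 4-fold below. Beside that background, 1 of 8 below is no result about the members. For DELTA-VPE the log2 ratio was -4.80 in each of the 10, 25 and 50 pg libraries, -3.43 at 75 pg and -2.78 at 100 pg. Without a pseudocount, its normalised level was 0.0592 of that at 5 ng at 75 pg and 0.114 at 100 pg, and at least 256-fold lower at 10 pg, taking 0 as a floor of 3 counts in that library. In plain CPM it was also below 5 ng in all 5 amounts, but no longer at least 4-fold with the same pseudocount, and the count became 0 members. The median log2 ratio of the 8 members lay between -1.61 at 50 pg and -0.68 at 100 pg, beside medians between 0 and 0.20 over all genes. With 1 library per amount these ratios had no replicate check.

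**Figure D2:**
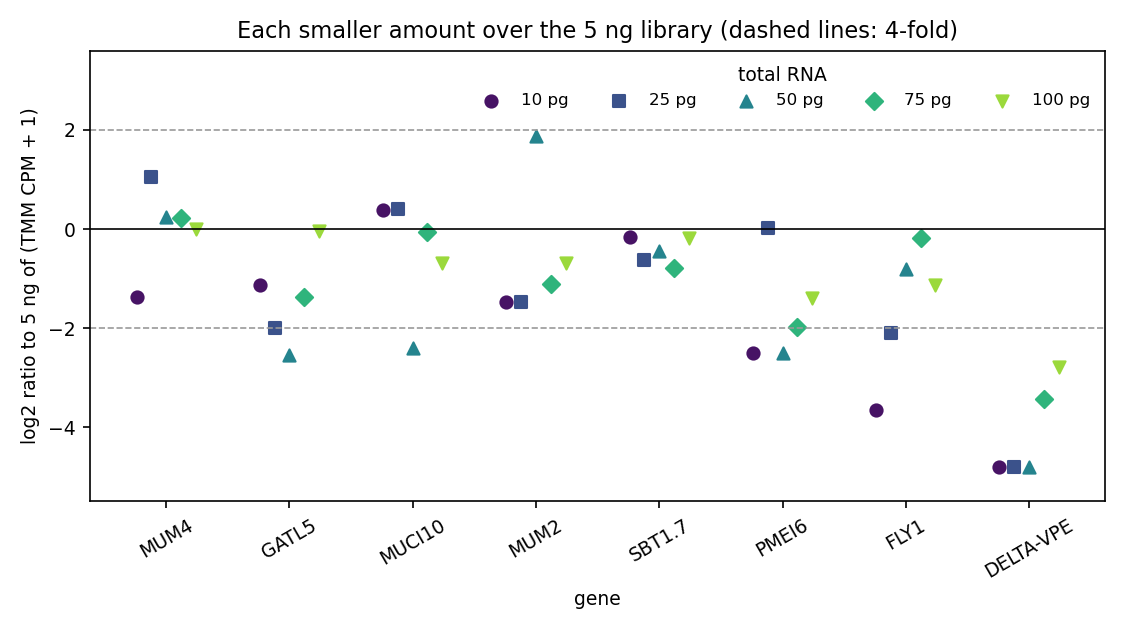
Ratio of each smaller amount to the 5 ng library on the vertical axis, as log2 of (normalised CPM + 1), for the 8 members with at least 1 CPM in any library on the horizontal axis. Each symbol is 1 library and the dashed lines mark 4-fold; DELTA-VPE lies below the lower line in all 5, from -4.80 to -2.78, while the 5 values of SBT1.7 lie between -0.78 and -0.15.

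All 5 smaller amounts were below 5 ng for GATL5, SBT1.7, FLY1 and DELTA-VPE with TMM factors, but without them DELTA-VPE was the only member below in all 5, and MUM4 and SBT1.7 were above in all 5. With the 9 reserve genes left out of the totals, DELTA-VPE again was the only member on 1 side of 5 ng in all 5. SBT1.7 thus turned from below to above in all 5 with the scaling, GATL5, FLY1 and MUM4 lay on 1 side in all 5 under 1 of these scalings alone, and MUCI10, MUM2 and PMEI6 lay on both sides under all 3.

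Per kilobase of gene model, which allows levels of different genes to be compared, SBT1.7 came first and MUCI10 second both in the smaller amounts and at 5 ng. The medians of normalised CPM per kilobase over the 5 smaller amounts were 34.3 for SBT1.7, 22.7 for MUCI10, 17.3 for MUM4, 6.24 for GATL5, 2.90 for FLY1, 0.526 for PMEI6, 0.115 for MUM2 and 0 for PRX36 and DELTA-VPE. The ranges over the 5 libraries of every pair of neighbours in this order overlapped. The spread within a gene was wide, with standard deviations of 6.65 around a mean of 34.9 for SBT1.7, 11.7 around 20.8 for MUCI10 and 9.11 around 17.2 for MUM4 (SD over the 5 amounts). At 5 ng the order was SBT1.7 (46.5), MUCI10 (23.7), GATL5 (17.1), DELTA-VPE (15.9), MUM4 (14.7), FLY1 (6.66), PMEI6 (5.72) and MUM2 (0.690), with PRX36 at 0. DELTA-VPE was without reads at 10, 25 and 50 pg, in place 6 of the 9 at 75 and at 100 pg, and in place 4 at 5 ng. Over the 5 smaller amounts, the difference between the highest and lowest log2(normalised CPM + 1) had a median of 2.49 over the 9 members, and of 2.14 over the 18931 genes.

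The question whether the level changed with the RNA amount was put to the 5 libraries of the second sequencing date, which leaves the 5 ng library out. No member passed the test. The slope, as the log2 change per doubling of the RNA amount, was put to the quasi-likelihood test of edgeR in 17327 genes with at least 10 read pairs in at least 2 of the 5 libraries, 8 of the members among them. PRX36 did not pass this filter. DELTA-VPE passed it only through the 75 and 100 pg libraries, and MUM2 only through the 50 and 100 pg libraries, where each had its most read pairs. At an adjusted p of 0.05, edgeR called 0 of the 8 members and 0% of all genes. The unadjusted edgeR p was under 0.05 for 13.7% of all genes and for 1 member, DELTA-VPE, of which nothing is read, since it could enter the test only by being high in the largest of the 5 amounts. As a description, the DELTA-VPE slope was 4.48 ± 1.42 (SE, 5 libraries), with an unadjusted p of 0.0133 and an adjusted p of 0.318 in edgeR, and adjusted p-values between 0.171 and 0.526 over its alternatives. DESeq2 gave it a slope of 2.90 ± 1.78 (SE), an unadjusted p of 0.102 and no adjusted p.

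FLY1 had a slope of 1.24 ± 0.60 (SE, 5 libraries) and an adjusted p of 0.40 in edgeR. DESeq2 gave 1.21 ± 0.42 and an adjusted p of 0.0405, the lowest of a range up to 0.771 over all alternatives. FLY1 was the only member called by DESeq2, which called 1785 genes (10.3% of those tested), and 8.06% of all genes with a positive slope. MUM2 had the least precise slope, 3.39 ± 2.55, and an adjusted p of 0.563 in edgeR. This slope too is given as a description only, since the filter let MUM2 in through its highest libraries.

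Of the other 5 members tested, none had an adjusted p under 0.626 in edgeR. The slopes were 0.22 ± 0.33 for MUM4 and 0.26 ± 0.41 for GATL5 (SE). They were -0.34 ± 0.30 for MUCI10, -0.04 ± 0.13 for SBT1.7 and -0.32 ± 1.52 for PMEI6. SBT1.7 had the smallest error of the 8. For FLY1 and PMEI6 a slope of 1, a doubling of the normalised level per doubling of RNA, lay within 1 SE of the estimate. For PMEI6 a flat course did so too. The level is relative to the library, so a transcript that keeps its share of the RNA has a flat course. The median slope was 0.24 over the 8 members and 0.08 over all genes. The members' median includes DELTA-VPE and MUM2, so nothing is read from the difference.

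**Figure D3:**
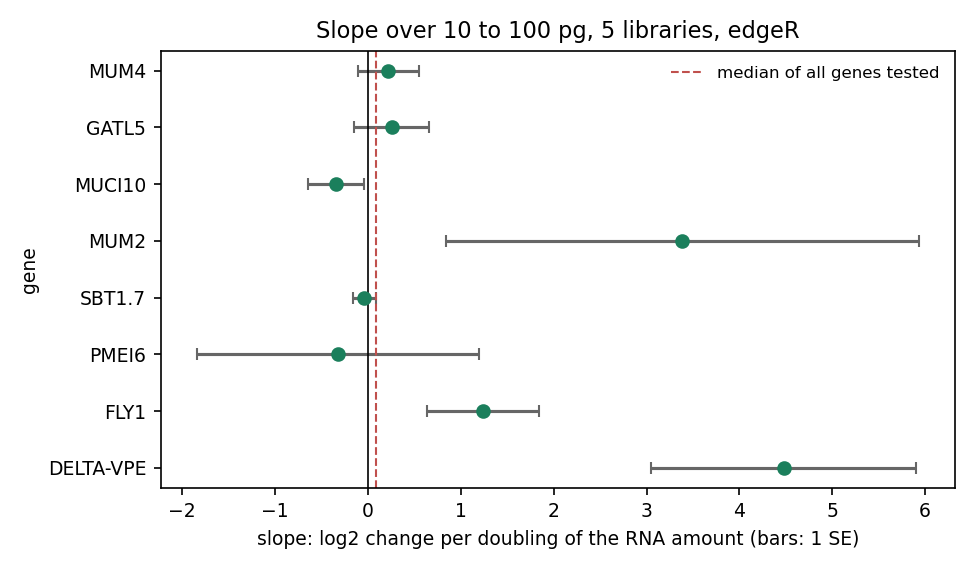
Slope of the level from 10 to 100 pg of RNA (5 libraries) on the horizontal axis, as log2 change per doubling, for the 8 members tested on the vertical axis. Points are edgeR estimates, bars 1 standard error and the dashed line the median of 0.08 over all genes tested; DELTA-VPE at 4.48 and MUM2 at 3.39 have the widest bars beside PMEI6.

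For the 6 members with at least 10 CPM in a library, the gene with the most similar course was sought among 14873 genes, by the root mean square difference of log2(normalised CPM + 1) over the 6 libraries after each gene's mean was subtracted. These matches describe the courses only. SBT1.7 was closest to AT2G34590, a transketolase family protein, with a difference of 0.0858, and MUM4 to SWI3B (AT2G33610), a subunit of a chromatin remodelling complex, with 0.115. SWI3B, like MUM4, was lowest in normalised CPM at 10 pg (5.90) and highest at 25 pg (43.2), with 15.7 at 5 ng. MUCI10 was closest to AT5G58575, a SAGA-associated factor-like protein (0.190), which also was low at 50 pg with 2.55 normalised CPM against between 9.58 and 20.4 in the other 4 small amounts. FLY1 was closest to the uncharacterized AT1G15885 (0.216), GATL5 to KCS2 (AT1G04220), a ketoacyl-CoA synthase (0.277), and MUM2 to AT2G19120, a P-loop hydrolase (0.279). AT2G19120 had 0 counts at 10 and 25 pg, 10.3 CPM at 50 pg and 0.509 CPM at 5 ng. PMEI6, PRX36 and DELTA-VPE stayed under 10 CPM in every library. The course of DELTA-VPE, with 0 counts at 10, 25 and 50 pg and at least 10 read pairs at 75 and 100 pg, was found in 224 of all 33602 gene models, DELTA-VPE included. Of these, 103 also had at least 10 read pairs at 5 ng, as DELTA-VPE did. Both counts were chosen after its values were seen.

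Of the 8 closest relatives of the members, 7 were detected in all 6 libraries and PRX72 in none. RHM1 (AT1G78570), which makes UDP-rhamnose like MUM4, had 239, 82.1, 124, 114 and 194 CPM from 10 to 100 pg, and 13.8 CPM at 5 ng. RHM3 (AT3G14790), the remaining gene of this family, had between 9.95 and 63.7 CPM, and 1.56 CPM at 5 ng. GATL6 (AT4G02130), the relative of GATL5, had 2, 138, 2, 16 and 43 read pairs, and 71 at 5 ng. Of the other vacuolar processing enzymes, ALPHA-VPE (AT2G25940) had between 29.8 and 76.4 CPM, and 36.1 CPM at 5 ng. GAMMA-VPE (AT4G32940) had between 4.54 and 41.0 CPM, and 44.9 CPM at 5 ng.

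BETA-VPE (AT1G62710), which processes seed storage proteins, was the only relative at least 4-fold below 5 ng in all 5 smaller amounts, as DELTA-VPE was, with 42.9, 18.0, 20.3, 18.5 and 6.46 CPM, and 297 CPM at 5 ng. Unlike DELTA-VPE, it was highest at 10 pg among the smaller amounts. FLY2 (AT2G20650), the paralogue of FLY1, had 2, 1, 1, 24 and 65 read pairs, and 129 at 5 ng. Its level was also lowest in the smallest amounts, with an edgeR slope of 1.38 ± 0.82 (SE) and an adjusted p of 0.473. PRX72 (AT5G66390), a peroxidase like PRX36, had 0 counts in all 6 libraries.

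Other genes known from work on mucilage, 42 in all, were present in part. In all 6 libraries 30 of them were detected, 7 were detected in no smaller amount, and 1 of those 7 in no library. Of 39 with at least 1 CPM in any library, 3 were at least 4-fold above 5 ng in all 5 smaller amounts (6.63% over all genes) and 9 at least 4-fold below (7.86% over all genes). In the slope test, edgeR called 0 of the 33 genes tested, while 4 of them had an unadjusted p under 0.05 (13.7% over all genes). With DESeq2 the adjusted p was under 0.05 for 4 of the 33, a share near the 10.3% over all genes.

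The 20 regulators held 5 of the genes at least 4-fold below 5 ng and none above. LUH (AT2G32700), a transcriptional regulator needed for mucilage release, was the most abundant of them in the smaller amounts, with between 58.3 and 113 CPM, and 14.7 CPM at 5 ng. ERF4 (AT3G15210), a transcription factor, had between 24.9 and 81.9 CPM, and 22.4 CPM at 5 ng. The 5 that were below 5 ng, named here after their values were seen, were the MYB factors MYB61 and MYB52, the NAC factor NARS2, the MADS factor STK and the homeodomain factor KNAT7. MYB61, which is needed for mucilage deposition, had 2 read pairs at 100 pg and none in the 4 smaller amounts. The other 4 had 0 counts in all 5 smaller amounts, and 15.4 CPM (NARS2), 5.75 CPM (KNAT7), 5.14 CPM (STK) and 1.04 CPM (MYB52) at 5 ng.

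The 15 genes of polymer synthesis held 2 genes above and 4 below 5 ng by the same rule. CESA3 (AT5G05170), a cellulose synthase, was the most abundant, with between 46.8 and 112 CPM, and 60.6 CPM at 5 ng. AT5G04160, of the nucleotide-sugar transporter family, had between 24.5 and 84.3 CPM, and 5.40 CPM at 5 ng. The 4 below were CESA10 and CESA2, both cellulose synthases, COBL2, a COBRA-like protein, and AT5G15740, of the O-fucosyltransferase family. CESA10 had 0 counts in all 5 smaller amounts, and 15.1 CPM at 5 ng. The 2 above were IRX14, a glycosyltransferase of xylan, with between 19.7 and 47.3 CPM, and 0.450 CPM at 5 ng, and AT1G28240, with between 6.29 and 19.0 CPM, and 0.137 CPM at 5 ng. These 6 were likewise named after their values were seen.

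Among the 7 genes of modification and secretion, ECH (AT1G09330), a trans-Golgi protein needed for pectin secretion, had between 42.8 and 117 CPM, and 47.7 CPM at 5 ng. SEC8 (AT3G10380), a subunit of the exocyst, had between 15.8 and 96.4 CPM, and 4.52 CPM at 5 ng. BXL1 (AT5G49360), a glycosidase that trims arabinan, was the only one above 5 ng by the rule, with between 6.04 and 56.9 CPM, and 0 counts at 5 ng. This gene too was named after its values were seen.

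**Figure D4:**
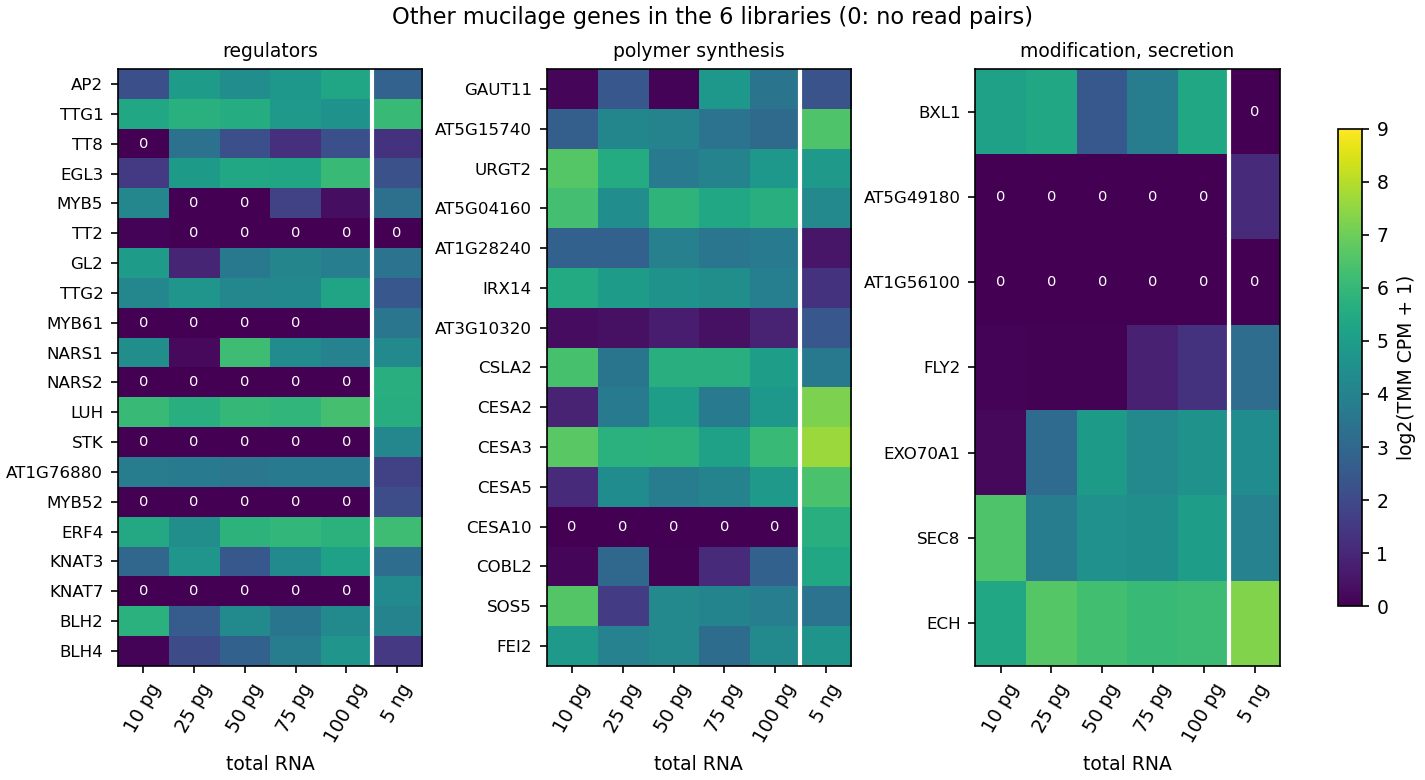
The 42 other mucilage genes by library, with the amount of RNA on the horizontal axis, genes on the vertical axis and colour for log2(normalised CPM + 1). A white line sets off the 5 ng library and 0 marks libraries without read pairs; NARS2, STK, MYB52, KNAT7 and CESA10 have 0 in all 5 smaller amounts and a value at 5 ng.

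Genes of the other seed coat layers differed among themselves in the same libraries. Of the 9 genes of seed coat tannin synthesis, 5, 5, 4, 4 and 6 were detected from 10 to 100 pg, and 4 at 5 ng. LDOX (AT4G22880) and DFR (AT5G42800), enzymes that tannins share with anthocyanins and that other tissues also use, had between 171 and 375 CPM and between 180 and 259 CPM, and 0.332 and 0.117 CPM at 5 ng. TT10 (AT5G48100), the laccase that oxidizes seed coat tannins, had 0 counts in all 5 smaller amounts, and 42.7 CPM at 5 ng. BAN, which marks the tannin layer, had 1.69 CPM in the 10 pg library, no read pairs in the next 4 amounts, and 2.03 CPM at 5 ng. Other genes of the list had read pairs in smaller amounts only. TT16 had 101 read pairs (3.28 CPM) at 100 pg and none elsewhere. TT12 had between 2 and 5 in each smaller amount and 0 at 5 ng. AHA10 had 4 at 100 pg alone and TT1 had 1 at 25 pg alone. These 4 were named after their values were seen. The summed level of the list was between 502 and 691 CPM, and 45.1 CPM at 5 ng, and rested on LDOX, DFR and TT19 in the smaller amounts. Among the 6 tannin genes past 1 CPM, these 3 were at least 4-fold above 5 ng in all 5 smaller amounts (6.63% over all genes). TT10, 1 of the 6, was at least 4-fold below (7.86% over all genes).

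Of the 8 genes of seed coat suberin, 2, 4, 4, 6 and 4 were detected from 10 to 100 pg, and 7 at 5 ng. Of the 6 past 1 CPM, 5 were at least 4-fold below 5 ng in all 5 smaller amounts, against 7.86% of all genes. CYP86B1 (AT5G23190), which makes very long chain suberin monomers, had 0, 2, 29, 125 and 90 read pairs, or at most 5.58 CPM, and 87.8 CPM at 5 ng. Like DELTA-VPE, it thus had its highest small-amount values at 75 and 100 pg and a higher one at 5 ng, but unlike it had read pairs at 25 and 50 pg. ABCG20, named after its values were seen, had 0, 0, 87, 59 and 48 read pairs, highest at 50 pg, and 30.8 CPM at 5 ng. FAR1 (AT5G22500), a fatty acyl reductase, was the one not below, with between 79.2 and 131 CPM, and 15.2 CPM at 5 ng. The list summed to between 83.2 and 136 CPM, and to 150 CPM at 5 ng, and rested on FAR1 in the smaller amounts.

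Of 11 endosperm genes, between 5 and 7 were detected in each smaller amount, and 5 at 5 ng. The list summed to between 268 and 455 CPM in the smaller amounts, and to 1.80 CPM at 5 ng. Among the 5 past 1 CPM, 3 were at least 4-fold above 5 ng in all 5 smaller amounts (6.63% over all genes) and none below. AT1G50650, of the Stig1 family, had between 127 and 244 CPM, and 0 counts at 5 ng, and ZOU (AT1G49770), a bHLH regulator of endosperm breakdown, between 35.7 and 130 CPM, and 0.665 CPM at 5 ng. MYB118 (AT3G27785), an endosperm regulator of maturation, had between 5.27 and 54.4 CPM, and 1.02 CPM at 5 ng. In the smaller amounts the summed level rested on AT1G50650, ZOU, MYB118 and ALE1, a subtilase. The imprinted genes FWA and PHE1 and the regulator MINI3 had 0 counts in every library. MEA had 0 counts in all 5 smaller amounts, and IKU2 had at most 1 read pair there.

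The 12 embryo and cotyledon markers summed to between 3789 and 4877 CPM in the smaller amounts, and to 1281 CPM at 5 ng. By the 4-fold rule, 1 of the 11 past 1 CPM was above 5 ng and 2 were below. PDF1 (AT2G42840), a protein of the outer cell layer, had between 2956 and 3786 CPM, and 1045 CPM at 5 ng, and PDF2 (AT4G04890), a homeodomain factor of the same layer, between 90.7 and 331 CPM, and 37.1 CPM at 5 ng. The reserve transcripts were abundant at 5 ng alone, and all 9 were below 5 ng by that rule. SESA3 (AT4G27160), a storage albumin, had at most 1.17 CPM in the smaller amounts, and 251323 CPM at 5 ng. SESA1 (AT4G27140) had at most 11.8 CPM, and 50922 CPM at 5 ng, and OLEO1 (AT4G25140), an oleosin, at most 26.3 CPM, and 36915 CPM at 5 ng. SESA1 and SESA3 are copies in tandem, and pairs that matched several genes were dropped, so that their counts may be too low. The part of RNA from other tissues in the values of DELTA-VPE and the other members was not tested.

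**Figure D5:**
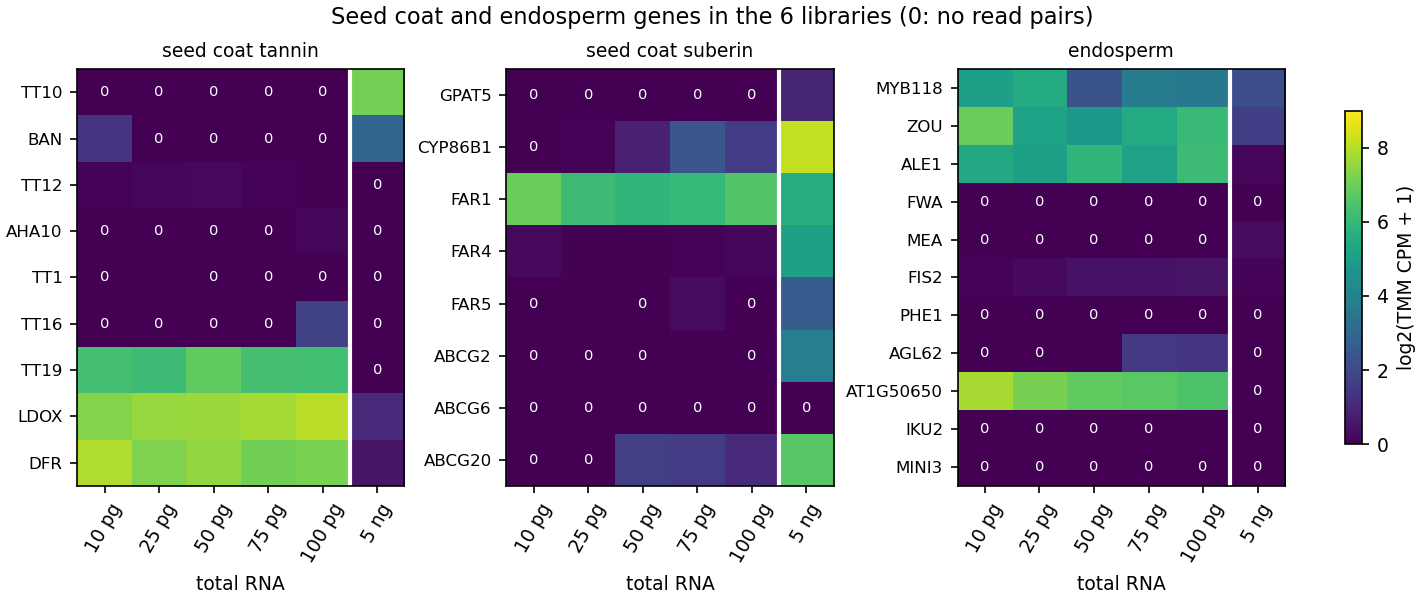
Genes of seed coat tannin, seed coat suberin and endosperm by library, with the amount of RNA on the horizontal axis, genes on the vertical axis and colour for log2(normalised CPM + 1). A white line sets off the 5 ng library and 0 marks libraries without read pairs. TT10 has no read pair in the smaller amounts and 42.7 CPM at 5 ng, while TT16 has 3.28 CPM at 100 pg and no read pair elsewhere. Of the endosperm genes, ZOU and ALE1 are high in the 5 smaller amounts, while FWA, PHE1 and MINI3 have no read pair in any library.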

How the data were processed

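Gene counts of 6 libraries, 1 per amount of total RNA, were grouped by their labels. The SMART-Seq v4 chemistry primes on poly(A) and amplifies by PCR, and sequencing was in paired-end without strand. After trimming and removal of rRNA, the authors ran Bowtie2 (local mode) against representative TAIR10 gene models, dropped pairs matching several genes and deposited raw counts of read pairs per gene, with the count of single reads and the model length beside them. TopHat2 is also named in the submitters' processing notes. Their date correction was not repeated.

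CPM and TMM-normalised CPM were computed with edgeR 4.0.16 in R 4.3.3 over all genes, and ratios took a pseudocount of 1. A gene was detected with at least 1 read pair. The slope on log2 RNA amount was fitted over the 5 libraries from 10 to 100 pg with edgeR's quasi-likelihood test (genes with at least 10 read pairs in at least 2 libraries, 3 residual degrees of freedom, Benjamini-Hochberg adjustment over all genes tested), with DESeq2 1.42.0 as an alternative. Its p-values measure only how single libraries scatter around a line. The fit was tested on simulated counts with a common dispersion for all genes, which does not show how it fares with the scatter of these libraries. Python 3.11.15 with pandas 2.3.3, NumPy 2.4.6, SciPy 1.17.1 and matplotlib 3.10.9 made tables and plots.

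The members and the 9 further lists, 98 entries of which 90 matched a name at their locus in the TAIR10.1 annotation, were chosen with earlier results of these data known. Genes named were all members, the 8 close relatives, of each list the 2 genes with the highest mean CPM in the smaller amounts and the highest at 5 ng, and for each member with at least 10 CPM the gene nearest in course. Positions and promoter windows of 250 bases are from RefSeq's annotation of TAIR10.1. Alternatives concerned the count minimum, pseudocount, fold, normalization, tool, filter, single reads and libraries left out.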

Additional observations from a re-analysis of the deposited data

How the results depend on the processing

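Of 132 values recomputed under other settings, 117 kept their direction and their side of the threshold or stayed within 1.5 times the count, 8 moved, 6 reversed and 1 became significant. The count of members at least 4-fold below 5 ng in all 5 smaller amounts, 1 (DELTA-VPE), was 0 with a pseudocount of 5, 0 in CPM without TMM factors and 0 with a fold of 8. Over all genes, CPM without TMM factors turned the split of 1256 genes above and 1488 below into 3448 above and 553 below, a pseudocount of 5 gave 609 and 912, a fold of 2 gave 2401 and 2610, and a fold of 8 gave 651 and 835. With a minimum of 10 read pairs, the tannin genes detected in at least 1 smaller amount were 5 in place of 8, the suberin genes 3 in place of 6, and the endosperm genes at 5 ng 2 in place of 5. DESeq2 called a slope for 1 member (FLY1, adjusted p = 0.0405) and for 1785 genes, where edgeR called 0 of each.

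Leaving out 1 library at a time turned the slope of MUM4 to -0.50 and of MUM2 to -0.87 without 10 pg, of SBT1.7 to 0.16 without 10 pg and to 0.0012 without 75 pg, of GATL5 to -0.17 without 100 pg and of PMEI6 to 3.72 without 25 pg. The slopes ran from these values up to 0.52 for MUM4, 4.16 for MUM2 and 0.98 for GATL5, and down to -1.12 for PMEI6. The median slope over the members tested lay between -0.16 (without 100 pg, 6 members) and 0.90 (without 25 pg, 8 members), so the sets of members differ. MUM2 without 50 or 100 pg and DELTA-VPE without 75 or 100 pg could not be fitted, since too few read pairs were left for the filter. The cause of these shifts was not tested. No paired analysis was possible because each amount has 1 library. After thinning to the smallest depth, the expected number of members detected was 5.97 at 10 pg, where 6 were observed, and equal to the observed one in the other libraries. The single dilution series, the confounding of date with 5 ng and the lack of strand limit every comparison.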
